A study of Homo sapiens with 6 samples.

Results

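The genes described here are the 9 transcripts chosen to stand for presentation of peptides by major histocompatibility complex (MHC) class I: HLA-B, HLA-C and HLA-E, B2M, TAP1, TAP2, TAPBP, PSMB8 and PSMB9. They were taken by symbol from 57905 gene identifiers measured in U87, an established human glioma cell line, and all 9 were among the 14578 genes abundant enough to be tested. Total RNA was sequenced in 6 libraries. In 3 control libraries the genotype label reads WT and the treatment label reads no. In 3 siRBM47 libraries both labels name siRBM47, a small interfering RNA (siRNA) against RBM47, an RNA-binding protein. One protocol, 100 pmol of siRNA given with a lipofectamine reagent, stands beside all libraries, and it is not said whether control cells received a control siRNA. The comparison asked which transcripts differ between cells labelled as depleted of RBM47 and control cells. Nothing in the labels says that replicates were grown separately, so the spread behind each p-value may be technical. In bulk RNA, fewer cells of a type and less RNA per cell cannot be told apart.

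Class I molecules show peptides from inside the cell to cytotoxic T cells and to natural killer cells. The proteasome cuts proteins into peptides, the TAP1 and TAP2 transporter pumps these into the endoplasmic reticulum, tapasin (TAPBP) holds the transporter to empty class I molecules, and a loaded heavy chain with beta-2-microglobulin (B2M) travels to the cell surface. Interferons raise many of these genes together, with NLRC5 and IRF1 among the factors that act on them, and exchange the constitutive catalytic subunits of the proteasome for PSMB8, PSMB9 and PSMB10. In gliomas the level of class I is of interest because it bears on whether T cells can recognise the tumour cells.

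Total counts ran from about 15580000 to 18130000 per library. The targeted transcript did not check the labels: RBM47 was at 1.62, 1.73 and 5.75 CPM (counts per mega-count of the TMM-scaled library) in control replicates 1 to 3 and at 3.54, 2.74 and 2.23 in siRBM47 replicates 1 to 3, with a log2 fold change of -0.11 (SE 0.50) that did not pass (adjusted p = 0.942, edgeR). Groups are therefore named as labelled. Control replicate 3 stood apart, with a correlation of log2 CPM across genes of 0.941 and 0.95 with the other controls, against 0.988 between these. Each result is given with and without this library where it changes a call, a direction or a called value. Of 10 glial and glioma markers listed, 7 were abundant enough to be tested. The mesenchymal and glioma genes VIM (2831 to 4939 CPM) and CD44 (596 to 902 CPM) were abundant. Some astrocyte markers, GFAP (0.339 to 1.49 CPM), S100B (0 to 0.387 CPM) and AQP4 (0 counts in every library), were at or near 0. Others of the list, SLC1A3 among them, are not reported here, so these values do not describe astrocyte markers as a class. Of 10 immune cell markers, AIF1, ITGAM and TYROBP had 0 counts in every library, PTPRC reached at most 0.0677 CPM, and only CSF1R (11.6 to 31.6 CPM) was abundant enough to be tested. CSF1R had a log2 fold change (siRBM47 over control) of 0.71 (adjusted p = 0.286, edgeR). Without control replicate 3 it was called higher, at 1.11 (adjusted p = 0.00242, edgeR), beside 10.1% of all tested genes. A count of 0 allows up to 0.16 to 0.203 CPM, depending on the library.

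In GENCODE 29 on GRCh38, 8 of the 9 genes lie in the MHC region of chromosome 6. HLA-E occupies chr6:30489467-30494205 on the plus strand, HLA-C chr6:31268749-31272130 and HLA-B chr6:31269491-31357188 on the minus strand. The HLA-B span as annotated overlaps that of HLA-C. TAP2 (chr6:32821833-32838780, minus), PSMB8 (chr6:32840717-32844703, minus), PSMB9 (chr6:32844136-32859585, plus) and TAP1 (chr6:32845209-32853978, minus) are close neighbours, and TAPBP is at chr6:33299694-33314387 on the minus strand. B2M is on another chromosome, at chr15:44711487-44718877 on the plus strand.

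The bases just before each gene's start are shown because these genes are known as a co-regulated set. RefSeq windows of 250 bases (GRCh38.p14) were found for 8 of the 9 genes, all but HLA-E, in 10 windows. The sequences below are those of the abundant pair HLA-B and HLA-C, of B2M, of the TAP1 window that faces PSMB9, and of TAPBP. Capitals mark matches on either strand to the core of interferon response elements (GAAA, any 2 bases, GAAA), to CCAAT or to the NF-kB consensus, and matches may overlap.
HLA-B (chr6:31357180-31357429, minus strand): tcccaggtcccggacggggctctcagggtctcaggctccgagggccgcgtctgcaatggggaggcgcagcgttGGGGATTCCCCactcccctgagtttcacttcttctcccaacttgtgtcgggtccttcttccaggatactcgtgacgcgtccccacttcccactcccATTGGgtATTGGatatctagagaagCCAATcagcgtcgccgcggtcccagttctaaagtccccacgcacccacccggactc
HLA-C (chr6:31272093-31272342, minus strand): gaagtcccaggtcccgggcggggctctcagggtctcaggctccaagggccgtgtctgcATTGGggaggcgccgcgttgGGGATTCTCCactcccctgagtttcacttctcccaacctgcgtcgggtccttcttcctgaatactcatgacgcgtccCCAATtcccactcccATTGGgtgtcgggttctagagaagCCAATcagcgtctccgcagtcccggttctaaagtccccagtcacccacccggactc
B2M (chr15:44711267-44711516, plus strand): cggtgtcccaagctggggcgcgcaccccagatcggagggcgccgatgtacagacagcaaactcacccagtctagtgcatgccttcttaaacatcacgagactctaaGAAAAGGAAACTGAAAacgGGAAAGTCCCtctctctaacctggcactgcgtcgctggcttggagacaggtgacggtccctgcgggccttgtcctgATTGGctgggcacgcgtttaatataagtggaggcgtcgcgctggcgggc
TAP1 (chr6:32853705-32853954, minus strand): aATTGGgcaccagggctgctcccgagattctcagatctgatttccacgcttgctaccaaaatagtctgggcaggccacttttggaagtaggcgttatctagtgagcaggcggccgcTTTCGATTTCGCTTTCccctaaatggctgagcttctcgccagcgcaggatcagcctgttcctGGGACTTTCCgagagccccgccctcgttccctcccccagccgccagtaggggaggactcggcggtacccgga
TAPBP (chr6:33314079-33314328, minus strand): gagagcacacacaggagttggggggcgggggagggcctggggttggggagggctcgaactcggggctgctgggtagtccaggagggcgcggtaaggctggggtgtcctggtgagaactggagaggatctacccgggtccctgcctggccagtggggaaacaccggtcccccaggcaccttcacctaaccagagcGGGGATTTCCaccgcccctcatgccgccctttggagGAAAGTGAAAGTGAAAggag
The interferon response core was found in windows of B2M, TAP1, TAP2 and TAPBP, 4 of the 10, and in 3.02% of all 35116 windows of this length. In B2M and TAP1 a pair of overlapping matches began 144 and 134 bases before the start, in TAPBP such a pair began 20 bases before it, and in TAP2 a single match began 58 bases before it. The NF-kB consensus was found in 5 of the 10 (HLA-B, HLA-C, B2M, TAP1 and TAPBP) and in 9.96% of all windows. CCAAT was found in 5 of the 10 (HLA-B, HLA-C, B2M, TAP1 and PSMB9) and in 32.0% of all. The starts of TAP1 and PSMB9 are 488 bases apart on opposite strands, and the CCAAT match of both windows is the same stretch of sequence. A match describes these reference letters only, and U87 alleles may differ from them.

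No difference in the 9 class I genes passed the test. By edgeR's quasi-likelihood test 0 of 9 had an adjusted p under 0.05, beside 0.22% of all tested genes (0.0823% higher and 0.137% lower). An unadjusted p under 0.05 was seen for 0 of 9, beside 16.1% of all tested genes. DESeq2 and limma-voom also called 0 of 9, beside 3.54% and 0.233% of the genes each tool tested. Log2 fold changes (siRBM47 over control) ran from -0.27 for TAPBP to 0.34 for B2M. Of the 9, 6 were positive, beside 48.8% of all tested genes, and their median was 0.12, beside -0.01 over all. The adjusted p-values ran from 0.483 to 0.895. The 95% intervals of the 9 genes reached down to 0.605-fold (TAPBP) and up to 1.81-fold (B2M). These intervals are not adjusted and are not limits of detection. In simulated counts with 3 libraries a group, edgeR found 22% of the 2-fold changes, so changes of that size can be missed. The changed genes were drawn from all tested genes, so this share is not specific to the 9 class I genes.

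B2M, the light chain shared by all class I molecules, was the most abundant member. It was measured at 1687, 1683 and 2762 CPM in control replicates 1 to 3 and at 2495, 2543 and 2742 CPM in siRBM47 replicates 1 to 3. Control replicates 1 and 2 were the lowest of the 6 libraries and control replicate 3 the highest, so the groups overlapped. Group means were 2044 ± 622 and 2593 ± 131 CPM (SD, n = 3), which gave a log2 fold change of 0.34 with an SE of 0.23, a 95% interval from -0.17 to 0.86 and an adjusted p of 0.498 in edgeR. When control replicate 3 was left out, B2M was called higher, at 0.62 with an SE of 0.13, a 95% interval from 0.34 to 0.91 and an adjusted p of 0.00552 in edgeR. DESeq2 (adjusted p = 0.000118) and limma-voom (adjusted p = 0.00381) called it too in that setting. It was the only member called in that setting, 1 of 9, where edgeR called 21.4% of all tested genes (10.1% higher and 11.3% lower), DESeq2 22.1% and limma-voom 21.3%. An unadjusted p under 0.05 was seen for 2 of 9 there (B2M and HLA-B), beside 35.9% of all tested genes.

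HLA-B, a classical heavy chain, was the only member whose groups did not overlap, which held for 22.6% of all tested genes (11.6% with siRBM47 above). Its levels were 934, 878 and 989.9 CPM in control and 1021, 1193 and 1157 CPM in siRBM47 replicates 1 to 3. Every siRBM47 library lay above every control library, but by little: means were 934 ± 56.1 and 1123 ± 90.5 CPM (SD, n = 3), and the log2 fold change of 0.27, with an SE of 0.17 and a 95% interval from -0.12 to 0.65, did not pass (adjusted p = 0.483, edgeR). HLA-C, the other classical heavy chain measured here, was at 205, 242 and 275 CPM in control and at 223, 328 and 313 CPM in siRBM47. Replicate 1 was the lowest library of each group, and the groups overlapped (log2 fold change 0.26, SE 0.21, adjusted p = 0.577, edgeR).

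HLA-E, a non-classical heavy chain that presents leader peptides of other class I chains to natural killer cell receptors, had the opposite sign. It was at 258, 261 and 342 CPM in control and at 209, 277 and 259 CPM in siRBM47, with a log2 fold change of -0.21 (SE 0.20, adjusted p = 0.643, edgeR). Control replicate 3 was the highest and siRBM47 replicate 1 the lowest library, and the other 4 lay between 258 and 277 CPM. In the fit without control replicate 3 the value was -0.06 (adjusted p = 0.795, edgeR).

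The peptide transporter was much less abundant. TAP1 was at 35.7, 47.2 and 53.9 CPM in control and at 36.1, 44.6 and 48.7 CPM in siRBM47. The groups overlapped over most of their ranges, with a log2 fold change of -0.08 (SE 0.21; adjusted p = 0.884, edgeR). TAP2 was at 31.5, 31.3 and 19.5 CPM in control and at 33.9, 31.6 and 22.1 CPM in siRBM47, with replicate 3 the lowest of each group. Its log2 fold change was 0.09 (SE 0.25, adjusted p = 0.895, edgeR). Signs of both turned without control replicate 3, to 0.05 for TAP1 and -0.11 for TAP2 (adjusted p = 0.868 and 0.742, edgeR).

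TAPBP, the tapasin gene, was at 148, 135 and 170.5 CPM in control and at 109, 155 and 112 CPM in siRBM47. Only siRBM47 replicate 2 lay within the control range, and the log2 fold change of -0.27, with an SE of 0.20 and a 95% interval from -0.73 to 0.18, did not pass (adjusted p = 0.542, edgeR). The immunoproteasome subunit PSMB8 was at 95.5, 83.4 and 68.2 CPM in control and at 92.7, 99.2 and 87.6 CPM in siRBM47 (log2 fold change 0.18, SE 0.19, adjusted p = 0.682, edgeR). PSMB9, a second such subunit, was at 51.4, 42.8 and 45.1 CPM in control and at 44.4, 50.6 and 56.5 CPM in siRBM47 (log2 fold change 0.12, SE 0.18, adjusted p = 0.786, edgeR). Groups overlapped for all of these.

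**Figure D1:**
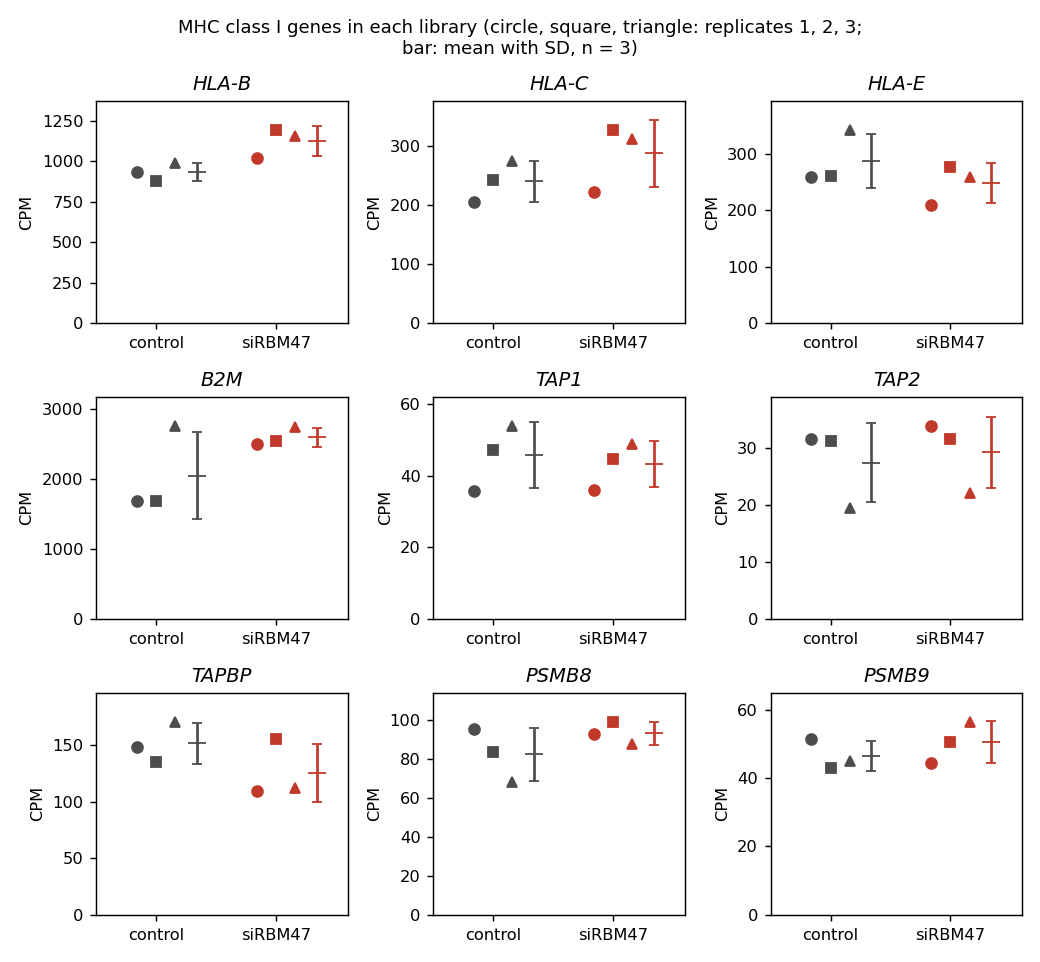
CPM (vertical axes, from 0) of the 9 class I genes in each library, by group; points are libraries and bars the mean with SD. Only HLA-B has groups that do not overlap, and B2M shows control replicate 3 at 2762 CPM against 1687 and 1683 in the other controls.

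**Figure D2:**
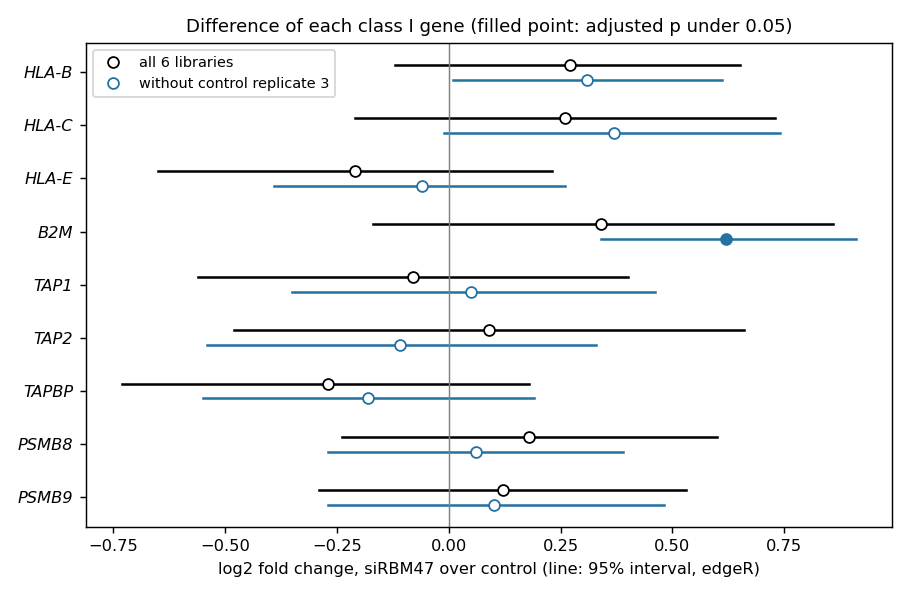
Log2 fold changes of siRBM47 over control (horizontal axis) with 95% intervals from edgeR, with all 6 libraries and without control replicate 3. With all 6 libraries every interval includes 0, and without control replicate 3 only B2M (0.62) passes the threshold.

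Levels between genes are compared per gene length, as the deposited FPKM (fragments per kilobase of gene, scaled to library size). Averaged over the 6 libraries the order was B2M (729 FPKM), HLA-B (339), HLA-C (105), HLA-E (89.1), PSMB8 (43.4), TAPBP (27.1), PSMB9 (15.6), TAP1 (9.27) and TAP2 (4.40). B2M ranked 41 and HLA-B 115 of all 57905 genes by this value, and TAP2 ranked 7039. The order of neighbours held in each of the 6 libraries except for HLA-C over HLA-E, which held in 4, and only this pair had ranges that overlapped. PSMB8 and TAPBP came close, at ratios of 1.01 to 2.14 within a library. B2M and HLA-B together made up 75.2% to 82.4% of the members' counts, and the 9 genes 0.327% to 0.49% of all counts. The gene length implied by FPKM is 3173 bases for B2M and 2020 for PSMB8, against 6079 and 2997 exon bases in GENCODE 29, and 2167 for PSMB7 against 1787. Longer lengths would lower the FPKM of B2M and PSMB8, so the order of B2M over HLA-B and of PSMB8 over TAPBP holds for the lengths behind the deposited values only, and ratios with B2M, PSMB8 or PSMB7 rest on these lengths too.

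Ratios within a library do not depend on scaling. Of 9 ratios chosen after the values were seen, HLA-B over HLA-E had groups that did not overlap, at 3.58, 3.32 and 2.86 in control and 4.83, 4.25 and 4.41 in siRBM47. The same held for tapasin over its relative TAPBPL, at 11.2, 9.68 and 10.5 in control and 7.95, 9.33 and 7.14 in siRBM47. Both gave p = 0.1 by a two-sided exact permutation test, the smallest p that 3 against 3 libraries allow, and 0.45 adjusted over the 9 ratios. B2M over HLA-B overlapped, at 1.73, 1.83 and 2.67 in control and 2.34, 2.04 and 2.27 in siRBM47. HLA-B over HLA-C was 3.79, 3.02 and 3.0 in control and 3.81, 3.02 and 3.08 in siRBM47, with groups that overlapped (exact permutation p = 0.5). TAP1 over TAP2 ran from 1.43 to 3.71.

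Each inducible proteasome subunit can be set against the constitutive subunit it replaces. PSMB8 stood at 0.428 ± 0.0495 of PSMB5 in control and 0.451 ± 0.0686 in siRBM47, PSMB9 at 0.148 ± 0.0375 and 0.143 ± 0.00654 of PSMB6, and PSMB10 at 0.0224 ± 0.00117 and 0.0261 ± 0.00531 of PSMB7 (ratios of FPKM, SD, n = 3). All 3 ratios overlapped between the groups. The constitutive transcript was the more abundant of each pair in all 6 libraries, and PSMB10 was the scarcest inducible subunit, at 2.71 to 4.82 FPKM. Part of its exon length (34.8%) is shared with AC040162.1 on the same strand.

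**Figure D3:**
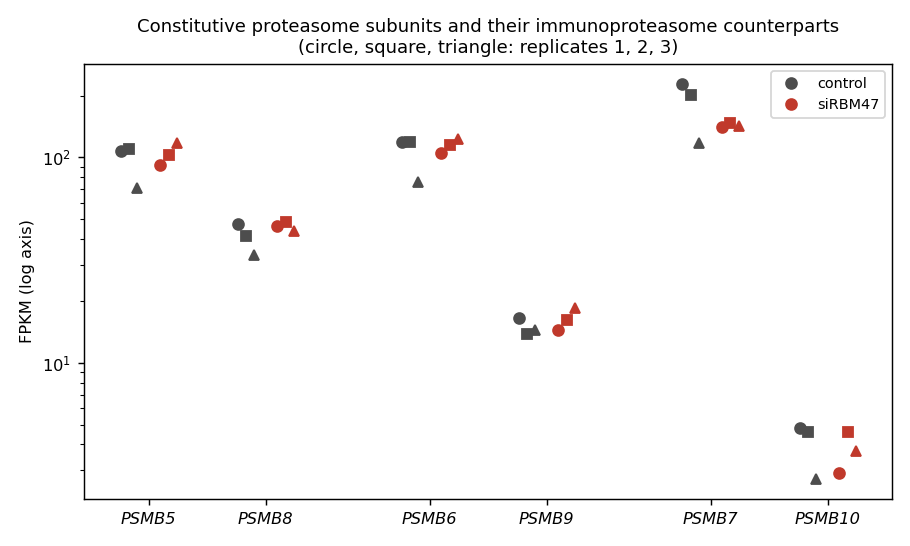
FPKM (log axis) of the constitutive subunits PSMB5, PSMB6 and PSMB7 beside PSMB8, PSMB9 and PSMB10 in each library. The inducible subunit is lower in every pair and library, and control replicate 3 is the lowest control for PSMB5, PSMB6, PSMB7, PSMB8 and PSMB10.

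The other genes of the pathway were taken from lists. Of 9 further proteasome genes (catalytic subunits, activators, assembly), 0 passed in edgeR, limma-voom or DESeq2, with a median log2 fold change of 0.10. The unadjusted edgeR p was under 0.05 for 0 of them, beside 16.1% of all tested genes. PSME2 and PSME1, the subunits of an interferon-inducible activator of the proteasome, had means of 204 ± 38.0 and 157 ± 9.50 CPM in the control libraries and of 274 ± 9.57 and 175 ± 2.15 CPM in the siRBM47 libraries (SD, n = 3). Their groups did not overlap, which held for 2 of 9 genes of this list and for 22.6% of all tested genes. The log2 fold changes were 0.42 (SE 0.19, adjusted p = 0.312) and 0.16 (SE 0.16, adjusted p = 0.677, edgeR). PSME3, of a nuclear activator, was at 0.21 (SE 0.18). PSMB5, PSMB6, PSMB7 and PSMB10 had log2 fold changes of 0.10, 0.12, -0.36 and -0.12 (adjusted p = 0.504 to 0.881, edgeR). PSMB7 was the only gene of this list called without control replicate 3, lower at -0.59 (adjusted p = 0.00835, edgeR). Of all tested genes 11.3% were called lower there.

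Among 10 genes of peptide trimming and loading, only HSPA5, an endoplasmic reticulum chaperone, passed and fell, by 1.21 on the log2 scale (SE 0.18, adjusted p = 0.0386, edgeR). Of all tested genes, 0.137% passed and were lower. HSPA5 levels were 2917, 2888 and 3277 CPM in control and 1426, 1373 and 1131 CPM in siRBM47. DESeq2 (adjusted p = 3.38e-06) and limma-voom (adjusted p = 0.0399) called HSPA5 too, beside 3.54% and 0.233% of the genes each tool tested. Without control replicate 3 HSPA5 was at -1.15 (adjusted p = 0.000139, edgeR), where 11.3% of all tested genes were called lower. Leaving out any other library ended the call (adjusted p = 0.0693 to 0.319, edgeR), with log2 fold changes of -1.27 to -1.11. In those settings edgeR called only 0 to 19 of all 14578 tested genes. CALR, the calreticulin gene whose product is part of the loading complex, was at 2167, 2148 and 2472 CPM in control and 1316, 1773 and 1446 CPM in siRBM47. Every siRBM47 library lay below every control, and groups did not overlap for 22.6% of all tested genes. The log2 fold change of -0.58 (SE 0.19) did not pass (adjusted p = 0.188, edgeR). CALR was called lower without control replicate 3, at -0.51 (adjusted p = 0.0259, edgeR), beside 11.3% of all tested genes.

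The remaining loading genes differed less. PDIA3, which holds disulfides in the loading complex, had a log2 fold change of -0.15 (SE 0.18), the lectin chaperone CANX -0.14 (SE 0.21), TAPBPL, a peptide editor related to tapasin, 0.08 (SE 0.22) and SEC61B, of the protein channel of the endoplasmic reticulum, 0.22 (SE 0.23). The peptide trimming enzymes ERAP1 and ERAP2 were at -0.33 (SE 0.30) and 0.13 (SE 0.32), and control replicate 3 had the highest value of all libraries for both, at 36.1 and 52.7 CPM. Without it ERAP2 was called higher at 0.62 (adjusted p = 0.0401, edgeR), beside 10.1% of all tested genes. ERAP1 was at 0.06 there (adjusted p = 0.862, edgeR).

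Of 6 other class I and class I-like chains, 4 were tested and 0 passed in edgeR, limma-voom or DESeq2. The unadjusted edgeR p was under 0.05 for 1 of 4, beside 16.1% of all tested genes. This was HLA-F, a non-classical heavy chain, at 19.5, 15.6 and 17.4 CPM in control and 9.89, 10.9 and 10.4 CPM in siRBM47. Its groups did not overlap, which held for 22.6% of all tested genes, and the log2 fold change was -0.75 (SE 0.20, adjusted p = 0.134, edgeR). HLA-F was called lower without control replicate 3, at -0.75 (adjusted p = 0.0165, edgeR), beside 11.3% of all tested genes. Genes on the opposite strand, HLA-F-AS1 among them, cover 28.5% of its exons, and the kit does not mark strand. MR1, which presents vitamin metabolites, was at 0.26 (SE 0.31, adjusted p = 0.725, edgeR). It was called higher without control replicate 3, at 0.71 (adjusted p = 0.0241, edgeR), beside 10.1% of all tested genes. The iron regulator HFE and the neonatal Fc receptor chain FCGRT were at -0.23 (SE 0.19) and -0.53 (SE 0.28), neither past the threshold.

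Regulators of class I transcription gave 0 of 12 calls in edgeR, limma-voom or DESeq2, with a median of 0.04. An unadjusted edgeR p under 0.05 was seen for 2 of 12, beside 16.1% of all tested genes. NLRC5, the class I transactivator, was at 31.1, 28.4 and 28.9 CPM in control and 27.3, 31.7 and 33.3 CPM in siRBM47, a log2 fold change of 0.06 (SE 0.18, 95% interval -0.34 to 0.47, adjusted p = 0.896, edgeR). IRF1, an interferon-induced activator, was at 21.2, 20.1 and 26.2 CPM and 26.5, 34.6 and 31.6 CPM (0.46, SE 0.20, adjusted p = 0.308, edgeR). Its groups did not overlap, which held for 22.6% of all tested genes. Genes on the opposite strand cover 22.0% of its exons. RFXAP, a subunit of the RFX complex that binds MHC promoters, was at 6.57 ± 0.221 CPM in control and 11.4 ± 2.11 CPM in siRBM47 (SD, n = 3; 0.80, SE 0.23, adjusted p = 0.154, edgeR). IRF2 was at -0.33 (SE 0.18) and NFYA, a subunit of the CCAAT-binding factor, at -0.32 (SE 0.17). Without control replicate 3 edgeR called 3 higher, RFXAP (0.77), IRF1 (0.58) and NFKB1 (0.79), and 1 lower, RFXANK (-0.59), with adjusted p-values of 0.0059 to 0.0471. Of all tested genes, edgeR called 10.1% higher and 11.3% lower in that setting. NFKB1 and RFXANK were named after their values were seen.

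The 6 interferon genes listed, IFNG, IFNB1, IFNL1, IFNL2, IFNL3 and IFNE, had 0 counts in all 6 libraries. Of 12 interferon receptor and signalling genes, 0 passed in edgeR, limma-voom or DESeq2. An unadjusted edgeR p under 0.05 was seen for 3, beside 16.1% of all tested genes. The transcription factor STAT2 was at -0.29 (SE 0.21), the kinase TYK2 at -0.48 (SE 0.21) and the phosphatase PTPN2 at 0.47 (SE 0.20). IRF9, a DNA-binding subunit of the ISGF3 complex, was of low abundance, at 1.46 ± 0.210 CPM in control and 0.356 ± 0.122 CPM in siRBM47 (SD, n = 3; -2.02, SE 0.46, adjusted p = 0.0977, edgeR). AL136295.5 overlaps 48.4% of its exon length on the same strand, and its counts are uncertain for that reason. The fit without control replicate 3 called IRF9 lower (-2.13, adjusted p = 0.0092) and PTPN2 (0.59) and JAK1 (0.49) higher (adjusted p = 0.0404 and 0.0309, edgeR). In that setting 11.3% of all tested genes were called lower and 10.1% higher. JAK1 was named after its value was seen.

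Of 20 interferon-stimulated genes 17 were tested, and 0 passed in edgeR, limma-voom or DESeq2, with a median of 0.24. An unadjusted edgeR p under 0.05 was seen for 2 of 17, beside 16.1% of all tested genes. GBP1, an interferon-induced GTPase, was at 8.26, 8.52 and 20.8 CPM in control and 27.1, 21.0 and 23.7 CPM in siRBM47 (0.93, SE 0.35, adjusted p = 0.245, edgeR). XAF1, with 38.3% of its exons covered by PRAL on the opposite strand, was at 1.94 (SE 0.62), and the antiviral synthetases OAS2 and OAS3 were at 1.06 (SE 0.53) and 0.27 (SE 0.18). With control replicate 3 left out the median was 0.57 and edgeR called 6 of 17 higher, beside 10.1% of all tested genes. They were GBP1 (1.51), OAS2 (1.90), XAF1 (3.06), IFIT1 (0.85), IFIT2 (1.37) and IFIT3 (1.49), with adjusted p-values of 0.000322 to 0.0453, and the IFIT genes were named after their values were seen.

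Control replicate 3 differed from the other controls in some of these lists. Its log2 CPM lay above the mean of control replicates 1 and 2 by a median of 1.30 over the interferon-stimulated genes, 0.66 over class II genes, 0.45 over ligands of the receptor NKG2D, 0.34 over interferon signalling genes, 0.27 over the 9 class I genes and 0.23 over trimming and loading genes, and below it by a median difference of -0.61 over the further proteasome genes, beside 0.01 over all tested genes. The median difference was 0.12 over other class I and class I-like chains and 0.02 over class I regulators. Control replicate 3 was above both other controls for 14 of 17 interferon-stimulated genes, 5 of 7 class II genes, 9 of 10 trimming and loading genes and 6 of 9 class I genes. The same held for 9 of 12 interferon signalling genes, 5 of 7 NKG2D ligands and 6 of 12 class I regulators. It held for 2 of 4 other class I chains and 2 of 9 further proteasome genes, against 44.9% of all tested genes. Among the class I genes the difference was 0.71 for B2M, 0.40 for HLA-E, 0.39 for TAP1, 0.30 for HLA-C, 0.27 for TAPBP, 0.13 for HLA-B, -0.06 for PSMB9, -0.39 for PSMB8 and -0.68 for TAP2. The B2M call made without this library moves with these values, and their part in it was not tested.

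Genes of MHC class II, which presents peptides from outside the cell and is normally made by immune cells, were set beside class I. Of 8 genes 7 were tested and all 7 log2 fold changes were negative, with a median of -0.56. Of all tested genes, 48.8% were positive. In edgeR and limma-voom 0 of the 7 passed. An unadjusted edgeR p under 0.05 was seen for 3 of 7, beside 16.1% of all tested genes. DESeq2 called 2 of 7, beside 3.54% of the genes it tested. CD74, the invariant chain that guards the class II groove, was at 126, 119 and 193 CPM in control and 52.8, 71.0 and 58.4 CPM in siRBM47 (-1.26, SE 0.24, adjusted p = 0.0716 by edgeR and 0.000228 by DESeq2). CIITA, the class II transactivator and relative of NLRC5, was at 7.31, 8.80 and 8.04 CPM in control and 3.20, 3.60 and 4.64 CPM in siRBM47 (-1.08, SE 0.26, adjusted p = 0.106 by edgeR and 0.0319 by DESeq2). Groups did not overlap for either gene, which held for 22.6% of all tested genes. Both were called lower by edgeR without control replicate 3 (CD74 -1.01, adjusted p = 0.001, and CIITA -1.08, adjusted p = 0.0107), beside 11.3% of all tested genes. HLA-DRA, a class II alpha chain, was at 69.1, 75.7 and 145 CPM against 50.1, 54.2 and 55.4 CPM (-0.86, SE 0.28, adjusted p = 0.188, edgeR), and HLA-DPA1 was at -0.35 (SE 0.18). The class II median was -0.35 without that library, HLA-DRA was at -0.44 (adjusted p = 0.0548, edgeR), and HLA-DMA turned from -0.22 to 0.04, so 6 of 7 were negative. The difference between the class I and class II values was not tested. The summed level of the 10 immune markers was 12.5 to 26.1 CPM in control and 23.8 to 31.7 CPM in siRBM47, nearly all from CSF1R, and its part in the class II values was not tested.

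**Figure D4:**
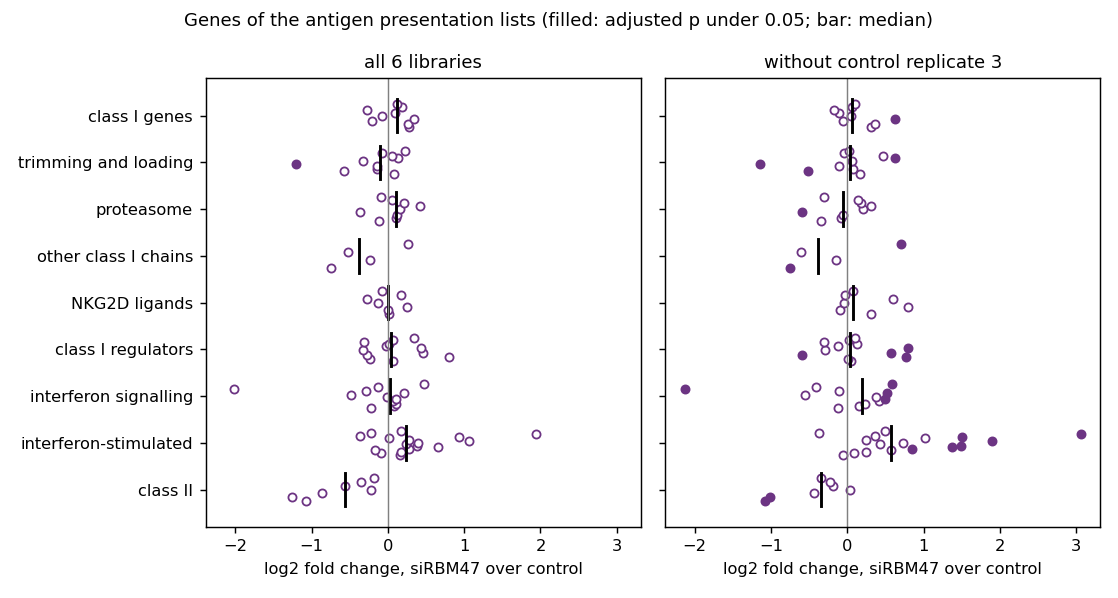
Log2 fold change of siRBM47 over control (horizontal axes) for every tested gene of each list, with all 6 libraries and without control replicate 3; bars are list medians. The class I genes lie between -0.27 and 0.34 with all 6 libraries, the 7 class II genes are all below 0 there (6 of 7 without control replicate 3), and HSPA5 is the only filled point (adjusted p under 0.05) in that panel; more points are filled without control replicate 3.

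The profiles of the class I genes over the 6 libraries are given as a description. After centring each gene on its mean log2 CPM, the mean profile of the 9 genes was nearly flat (-0.08, -0.08 and 0.04 in control and -0.09, 0.16 and 0.05 in siRBM47 replicates 1 to 3). Members lay at root mean square distances of 0.0966 (HLA-B) to 0.345 (TAP2) from it, over 6 libraries. The 5 nearest of 9636 other genes were NQO2 (0.0155), OBSL1 (0.0328), RNF10 (0.0345), ABHD12 (0.0390) and SEPTIN8 (0.0420), with log2 fold changes of 0.04 to 0.16. They are the nearest of many genes to a nearly flat profile, and their distances are not comparable with those of the members.

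Counting limits what can be said of single members. Words of 50 bases shared with other genes' transcripts made up 2.7% of HLA-B, 5.4% of HLA-C and 4.3% of HLA-E, mostly shared with other HLA genes, and reads there may be lost or split. HLA genes are also highly polymorphic, and reads of U87 alleles were aligned to a reference, and the effect of this on their levels was not tested. For TAP2 the share was 31.3%, with AL669918.1, which overlaps 32.3% of its exon length on the same strand. HLA-B and HLA-C overlap each other on the same strand over 1.1% and 1.4% of their exon lengths. Opposite-strand genes cover 17.8% of the exons of HLA-B (AL671883.2), 20.6% of PSMB8 (PSMB9 and PSMB8-AS1) and 9.5% of TAP1 (PSMB8-AS1). The library kit does not mark strand. B2M and PSMB8 shared no such word.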

How the data were processed

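Groups and replicate numbers were read from the sample titles. Per the submitters' processing notes, the authors' tools were HISAT2 2.0.5 and featureCounts 1.5.0-p3 and the genome build was hg38. The annotation, the strand setting and the handling of multiply mapped reads were not stated in the sources used here. The kit does not mark strand. Each deposited file gives raw counts and FPKM per gene, per the file headers. Tests used the counts; FPKM served for levels between genes and for ratios within a library.

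Symbols came from a table of Ensembl identifiers, positions from GENCODE 29 and promoter windows from RefSeq. filterByExpr (minimum count 10) kept 14578 genes, tested with edgeR 4.0.16 under R 4.3.3 (TMM factors, quasi-likelihood test, no block). Benjamini-Hochberg adjustment ran over all 14578, with a threshold of 0.05. The SE is the size of the log2 fold change divided by the root of edgeR's F. Intervals of single genes are not adjusted. CPM use TMM-scaled library sizes, and log2 CPM a prior count of 2. The members and lists were chosen with earlier results of these data known. Named genes are the 9 members, RBM47, up to 4 genes with the smallest p of each pathway list, and 15 pathway genes whatever their p. Some genes that the rule or the lists hold are not reported here.

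Alternatives were RLE or upper quartile factors, DESeq2 1.42.0, limma-voom (limma 3.58.1), no filter, a higher minimum (50), a replicate block, and leaving out each library. DESeq2 and limma-voom without control replicate 3 were added after seeing the data. In simulated counts for this comparison (14578 genes) edgeR found 22% of the 2-fold and 85% of the 4-fold changes, and 6 of its 113 calls were false. Chi-square per degree of freedom between libraries of a group was 10.74 to 144.8, above sampling noise. Limits for a count of 0 use 3 counts and cover counting error only.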

Additional observations from a re-analysis of the deposited data

How the results depend on the processing

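No class I gene passed the threshold in any of the 7 alternatives run on all 6 libraries, and all 63 of their log2 fold changes kept their sign. Leaving out single libraries gave 0 to 1 members past the threshold, the 1 being B2M without control replicate 3; DESeq2 and limma-voom without that library also gave 1. TAP1 and TAP2, near 0 throughout, turned sign: over the libraries left out they ran from -0.22 to 0.05 and from -0.11 to 0.26, and without control replicate 3 they were 0.06 and -0.10 by DESeq2 and 0.05 and -0.13 by limma-voom. The number of genes past the threshold among all tested, 32 by edgeR, was 532 by DESeq2, 804 with no filter on low counts (27110 genes tested) and 39 with the replicate block. It ran from 0 to 3117 over the libraries left out. The 3117 came without control replicate 3, where DESeq2 gave 3209 and limma-voom 3101; without control replicate 1 or 2 it was 19 or 12. Leaving out siRBM47 replicate 1, 2 or 3 gave 0 (edgeR), where 1789, 1816 and 1445 genes had an unadjusted p under 0.05; the other tools were not run there. The cause was not tested.

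Same-numbered libraries did not all deviate together (correlations of deviations from the group means -0.0364, 0.127 and 0.116; control replicate 1 correlated best with siRBM47 replicate 2, at 0.2), so the numbers were not read as pairs. The replicate block ended the call of HSPA5 (-1.21, adjusted p = 0.0717, edgeR) and no other call among the genes named. Sign changes of uncalled genes over the libraries left out were CANX (-0.23 to 0.08), ERAP1 (-0.54 to 0.06), ERAP2 (-0.06 to 0.62), PSMB10 (-0.34 to 0.04), PSMB5 (-0.08 to 0.21), PSMB6 (-0.06 to 0.23), ULBP3 (-0.67 to 0.60, and 0.05 by limma-voom), RAET1E (-0.03 to 0.32) and RBM47 (-0.39 to 0.76, with 0.10 by limma-voom and 0.12 with the replicate block). With no filter on low counts IRF9 (-2.01), GBP1 (0.95), XAF1 (1.96), CD74 (-1.25) and HLA-DRA (-0.84) passed the threshold. Members had from 367 counts (TAP2) to 51893 counts (B2M) per library, so counting error is small beside the spread between libraries.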

Other observations

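Ligands of NKG2D, an activating receptor of natural killer cells and T cells, are class I-like proteins that stressed cells show at their surface. Of 8 listed, 7 were tested, and edgeR, limma-voom and DESeq2 each called 0. The unadjusted p of edgeR was under 0.05 for 0, beside 16.1% of all tested genes. Per gene length, MICA was at 29.1 to 49.4 FPKM over the 6 libraries (for an implied length of 1395 bases, against 2386 exon bases in GENCODE 29), ULBP2 at 11.5 to 16.1 FPKM and MICB at 6.82 to 8.82 FPKM; the genes of MICA and MICB lie in the MHC region. MICA was at 40.7, 43.1 and 69.6 CPM in control and 41.6, 55.3 and 58.8 CPM in siRBM47 replicates 1 to 3, and MICB at 23.9, 25.4 and 19.8 CPM and 20.4, 24.4 and 24.1 CPM. ULBP2 was at 17.3, 20.1 and 22.1 CPM and 15.6, 19.6 and 19.4 CPM. Log2 fold changes were 0.25 (SE 0.38) for ULBP1, -0.13 (SE 0.21) for ULBP2, -0.27 (SE 0.59) for ULBP3 and 0.17 (SE 0.29) for RAET1E. MICA and MICB were named after their values were seen.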
